A study of Mus musculus with 8 samples.

Results

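The liver plasma protein genes are 47 genes whose products are carried in blood plasma and are made mostly by hepatocytes: albumin and other carriers, apolipoproteins, clotting factors, their inhibitors, protease inhibitors and complement. They were chosen by gene symbol, and all 47 symbols were found among the 22367 protein-coding genes of the mm9 annotation. 5-hydroxymethylcytosine (5hmC) was mapped by GLIB-Seq, in which 5hmC is glucosylated, oxidised with periodate and biotinylated so that the DNA that carries it can be pulled down and sequenced. The lists of 5hmC peaks come from 6 libraries, 1 per condition: E14 mouse embryonic stem cells (ESCs), C57BL/6 mouse embryonic fibroblasts (MEFs, labelled embryonic day 11, while the study's methods name a later day), C57BL/6 adult brain and liver (both 8 weeks), and a pair of puromycin-selected E14 transfectants, shSuz12, with a hairpin that targets Suz12, and its control shGFP, with one that targets GFP. E14 is a single established line, MEFs are primary cells, and brain and liver are whole tissues with several cell types. The tissue and knockdown labels cannot be checked against expression here, since the 2 RNA-Seq samples of the series were not analysed and no list measures RNA.

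5hmC is made from 5-methylcytosine by the TET enzymes and is commonly found at regulatory regions and along the bodies of transcribed genes. The hepatocyte secretes most plasma proteins and transcribes their genes at very high rates, under factors such as HNF1, HNF4 and C/EBP. Many of these genes have promoters with few CpG dinucleotides, and several lie in clusters that arose by duplication. The comparison asks where 5hmC lies on the genes of a tissue's own products, in that tissue and in cells that do not make them.

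The lists held 130408 peaks in liver, 171865 in ESCs, 217025 in MEFs, 157511 in brain, 132996 in shGFP and 138705 in shSuz12, and covered 83.5 to 207.9 Mb. Each peak has a score from the peak caller, and the lowest score listed was 80 in liver and ESCs, 30 in brain and MEFs, 30.34 in shSuz12 and 50.02 in shGFP. Liver therefore shares its limit with ESCs alone, and its list has the stricter limit beside each of the other 4. No list gives read counts, so the depth is unknown, and a window with no peak has no listed peak rather than no 5hmC. With 1 library per condition there is no spread between replicates and no test between conditions. Values are given beside the same value over all protein-coding genes, and the exact (Clopper-Pearson) 95% intervals of shares cover counting error over genes only. These intervals treat the genes as independent. Some members are neighbours that share peaks or windows, so the intervals can be too narrow.

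Some of the sequence that the results turn on is shown first. Each run is 150 bases of mm9, read on the strand of the gene, with CpG dinucleotides, the sites at which 5hmC mostly occurs, in capitals. The first 4 runs are the centres of liver peaks: the upstream peaks of Alb (chr5:90885721-90885870, plus strand) and Apoa5 (chr9:46073732-46073881, plus strand) and intronic peaks of Itih1 (chr14:31749386-31749535, minus strand) and C3 (chr17:57354785-57354934, minus strand). In these runs the Alb and Apoa5 stretches were under a peak in liver alone among the 6 libraries, that of Itih1 in brain and liver, and that of C3 in ESCs, liver and shGFP. The Alb and C3 runs hold 1 CpG each, that of Itih1 3 and that of Apoa5 4. Whether these runs are repeated elsewhere in the genome was not tested, and the authors kept only reads with a single match.
Alb, upstream liver peak: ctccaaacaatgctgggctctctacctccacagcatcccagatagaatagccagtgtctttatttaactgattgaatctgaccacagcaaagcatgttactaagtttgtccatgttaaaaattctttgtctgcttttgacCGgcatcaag
Apoa5, upstream liver peak: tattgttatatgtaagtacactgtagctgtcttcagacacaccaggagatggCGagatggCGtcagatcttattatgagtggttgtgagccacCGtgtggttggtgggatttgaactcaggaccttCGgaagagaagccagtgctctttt
Itih1, intronic liver peak: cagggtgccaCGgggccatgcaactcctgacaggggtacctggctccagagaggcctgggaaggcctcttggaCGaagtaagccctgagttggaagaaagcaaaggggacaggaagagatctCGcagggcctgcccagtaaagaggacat
C3, intronic liver peak: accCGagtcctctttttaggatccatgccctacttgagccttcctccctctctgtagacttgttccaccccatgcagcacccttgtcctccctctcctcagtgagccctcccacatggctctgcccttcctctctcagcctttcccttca

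The next runs are the 150 bases just before the transcription start site (TSS) of 5 genes, shown because they range from no peak in any library (Alb and Afp) to peaks that divide the libraries. They lie at chr5:90889765-90889914 (Alb, plus strand), chr5:90919590-90919739 (Afp, plus strand), chr9:46036513-46036662 (Apoa1, plus strand), chr12:7984304-7984453 (Apob, plus strand) and chr16:22918305-22918454 (Fetub, plus strand). Before Alb and Afp, none of the 6 libraries had a peak over these bases. Before Apoa1 the whole run was under a peak in ESCs and brain, and before Apob in ESCs, MEFs, brain, shGFP and shSuz12, while neither had a liver peak there. Before Fetub the whole run was under a peak in ESCs, liver and shGFP, with 33 bases in MEFs, 6 in shSuz12 and 0 in brain.
Alb, before the TSS: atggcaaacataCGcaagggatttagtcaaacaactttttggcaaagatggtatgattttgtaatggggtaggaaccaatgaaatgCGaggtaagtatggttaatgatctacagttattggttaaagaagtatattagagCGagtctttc
Afp, before the TSS: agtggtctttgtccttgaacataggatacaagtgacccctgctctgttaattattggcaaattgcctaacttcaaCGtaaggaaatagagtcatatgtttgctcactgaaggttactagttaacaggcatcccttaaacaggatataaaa
Apoa1, before the TSS: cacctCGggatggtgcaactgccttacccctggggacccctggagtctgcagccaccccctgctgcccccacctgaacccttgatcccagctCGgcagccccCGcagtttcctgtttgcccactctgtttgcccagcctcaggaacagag
Apob, before the TSS: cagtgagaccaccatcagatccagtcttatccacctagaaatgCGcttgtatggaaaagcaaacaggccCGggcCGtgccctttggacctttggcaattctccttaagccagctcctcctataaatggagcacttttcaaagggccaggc
Fetub, before the TSS: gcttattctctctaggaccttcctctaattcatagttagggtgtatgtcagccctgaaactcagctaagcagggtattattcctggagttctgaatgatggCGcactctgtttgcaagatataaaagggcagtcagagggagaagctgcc

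In liver, 5hmC lay beside the plasma protein genes far more often than beside protein-coding genes in general, and the excess was clearest upstream of the TSS. A peak overlapped the 5 kb upstream of the TSS in 43 of the 47 genes (91.5%, interval 79.6 to 97.6%), against 38.4% of all protein-coding genes. The 4 genes with no liver peak there were Fgg, Ahsg, C3 and Serpina1a. In the other libraries the share of all genes lay within the interval of the members: 25 of 47 in ESCs (46.2% of all genes), 17 in MEFs (38.5%), 18 in brain (31.1%), 15 in shGFP (39.1%) and 17 in shSuz12 (36.4%). With the 50% of liver peaks that have the highest scores, the count fell from 43 to 26 of 47, beside 23.5% of all genes.

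The gene span itself, from the outermost start to the outermost end, did not separate liver from the other libraries by the count of genes with a peak. A span peak was listed for 37 of 47 genes in liver (57.9% of all genes), 39 in ESCs (67.8%), 32 in MEFs (61.0%), 36 in brain (60.7%), 37 in shGFP (63.4%) and 36 in shSuz12 (63.0%). The libraries differed in how much of the span was covered. The median share of the span under peaks was 29.4% in liver (4.44% over all genes), 13.8% in ESCs (8.77%), 7.83% in MEFs (4.43%), 9.96% in brain (6.43%), 5.18% in shGFP (4.17%) and 3.64% in shSuz12 (3.05%). Summed over the 47 genes, 348756 of 932428 bp lay under liver peaks, or 37.4%, against 12.9% over all genes.

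In the 2 kb around the TSS (TSS ± 1 kb) the counts were nearer to those of all genes: 20 of 47 in liver (29.4% of all genes), 18 in ESCs (31.9%), 14 in MEFs (30.1%), 10 in brain (20%), 11 in shGFP (27.1%) and 10 in shSuz12 (21.4%). In 18 of the 20 liver genes a peak ended short of the TSS; the others were Fetub, with a peak across it, and Apoa4, with a peak after it, and F7 had a peak on each side. It was 6 of 47 within 500 bp of the TSS, 7 by the peak midpoint and 30 within 2 kb. Downstream of the gene end, liver again stood apart, with a peak within 5 kb in 39 of 47 genes (44.5% of all genes), against 27 in ESCs (48.3%), 19 in MEFs (41.1%) and 21 in brain (41.7%).

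**Figure D1:**
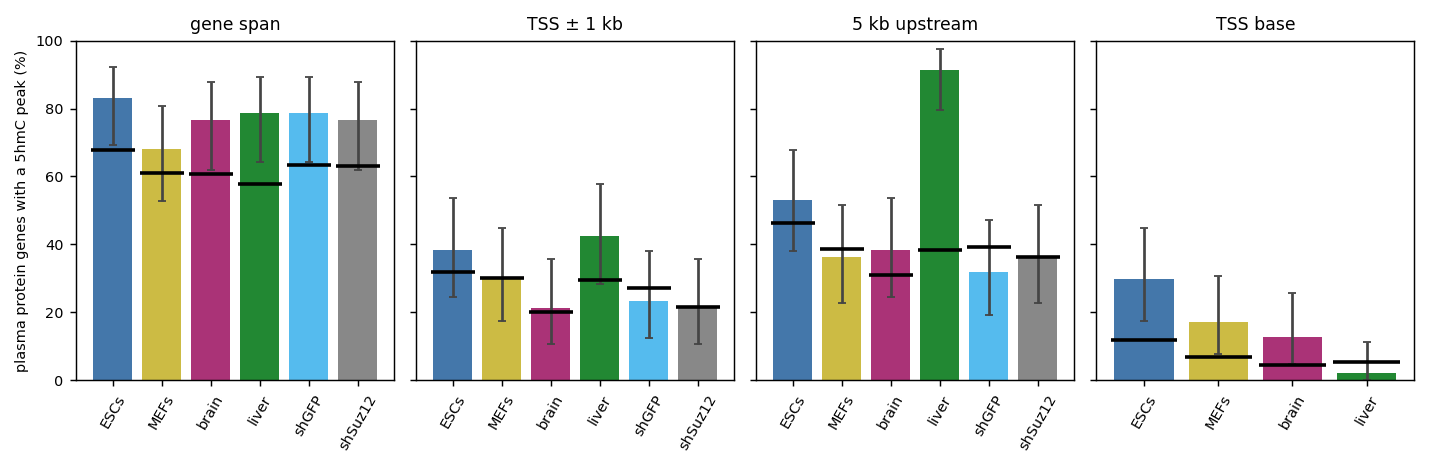
Share of the 47 plasma protein genes with a 5hmC peak (%), by library, in the gene span, the TSS ± 1 kb, the 5 kb upstream and at the TSS base itself (4 cell types only). Bars are 1 library each, whiskers are exact 95% intervals for counting error and black lines are the share of all protein-coding genes; the liver bar in the 5 kb upstream, 91.5%, stands farthest from its line.

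The base at the TSS itself lay under a peak in 14 of 47 genes in ESCs (11.8% of all genes), 8 in MEFs (6.87%), 6 in brain (4.46%) and 1 in liver (5.38%). Intervals were 17.3 to 44.9% in ESCs, 7.65 to 30.8% in MEFs and 4.83 to 25.7% in brain, each above the share of all genes. In liver it was 0.0539 to 11.3%, which holds the share of all genes, so the liver count is not distinct from the background. Fetub was the single gene in liver and encodes fetuin-B, an inhibitor of metalloproteases. In ESCs the 14 genes were Apoa1, Apoa2, Apoa5, Apob, Apoc2, Apoc3, Trf, F2, F10, F11, Fetub, Itih1, Vtn and Proc, and Apoa1, Apob, F2, F10 and Vtn were among the 6 in brain as well, with Ttr. These counts use the outermost annotated start of each gene. When a peak at any annotated transcript start of the gene was counted, liver rose to 10 of 47 (19.0% of all genes), with 16 in ESCs (26.8%), 8 in MEFs (17.5%) and 9 in brain (17.8%). The members' shares were then 34.0% in ESCs, 17.0% in MEFs and 19.1% in brain, nearer to those of all genes. The excess at the TSS base in ESCs, MEFs and brain thus depended on the start used. The genes added in liver included Itih3, Itih4, C8b and Cp, which have further annotated starts inside the gene.

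In the liver profile, both the 47 genes and all genes were lowest near the TSS. From 3 to 1 kb upstream, a mean of 36.3% of the 47 genes was under a liver peak, against 14.0% of all genes, and the share at the TSS, which is 1 gene, was 2.13% against 5.38%. From 3 to 5 kb downstream it was 30.7% against 18.5%. In ESCs the plasma protein genes had their highest share at the TSS, 29.8% against 11.8%, and 10% from 3 to 1 kb upstream against 12.5%. In MEFs the share at the TSS was 17.0% and from 3 to 1 kb upstream 4.31%, and in brain 12.8% and 7.37%.

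**Figure D2:**
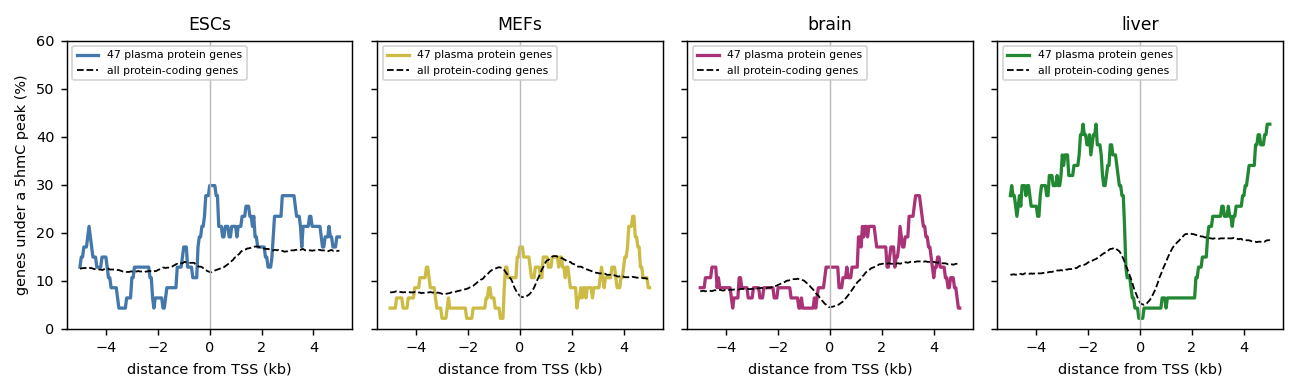
Percent of genes under a 5hmC peak (y axis) at each distance from the TSS (x axis, kb, negative is upstream), in steps of 50 bp, for the 47 plasma protein genes (coloured line) and all protein-coding genes (dashed) in 4 cell types. The liver line falls to 2.13% at the TSS between a mean of 36.3% from 3 to 1 kb upstream and 30.7% from 3 to 5 kb downstream, while in ESCs the line reaches 29.8% at the TSS.

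The nearest liver peaks lay closer upstream than downstream. In liver the nearest peak upstream of the TSS lay within 2 kb in 28 of 47 genes, against 28.7% of all genes. The nearest peak downstream lay within 2 kb in 5 genes (interval 3.55 to 23.1%), against 29.9%. The median distance in liver was 1491 bp upstream and 5027 bp downstream, against 13626 and 8046 bp over all genes. By the median, the liver peaks downstream were thus also nearer than over all genes. In ESCs the medians were 4571 and 3696 bp, against 6158 and 4847 bp. The 5 genes with liver 5hmC soon after the TSS were Fetub, with a peak across it, Apoa4 at 141 bp, F7 at 846 bp, Itih1 at 1041 bp and F5 at 1729 bp. The nearest upstream peaks were those of Apoc2 at 69 bp, Ambp at 209 bp, Apob at 349 bp and Alb at 382 bp. Along the gene, cut into 100 equal parts, the liver share rose from 4.89% of genes in the first 10 parts to 38.5% in the middle 10 and 49.4% in the last 10. Over all genes these shares were 11.8, 17.4 and 21.1%.

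Liver coverage therefore lay both in and outside the genes. The covered share of the span was larger than that of the 5 kb upstream in 28 of 47 genes and smaller in 18, and Serpina1a had neither. Both windows held a liver peak in 34 genes. Upstream peaks with a span free of peaks were found in 9 genes, 19.1% of the 47 against 4.58% of all genes. These were Alb, Apoa1, Apoa2, Apoa5, Apoc3, Apoe, Ttr, Hp and Vtn. Span peaks with none upstream were found in Fgg, Ahsg and C3. Length went with this division. Of the 8 genes under 5 kb, 7 had no liver peak in the span, and 7 of the 8 had one in ESCs, with a median ESC coverage of 56.5%. Of the 39 genes of 5 kb or more, 36 had a liver span peak, with a median coverage of 38.8% in liver and 9.1% in ESCs. For a short gene the span lies within the stretch after the TSS that was free of liver peaks in most members, so length and position cannot be told apart. Among all genes under 5 kb, 24.7% had a liver span peak and 32.5% an ESC one.

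**Figure D3:**
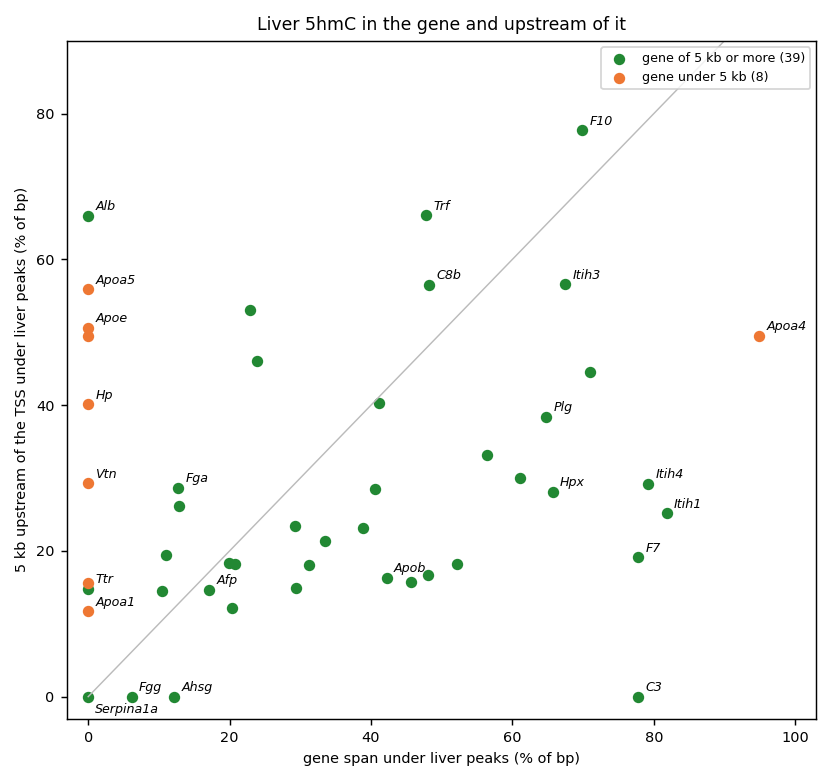
Share of the gene span (x axis, %) and of the 5 kb upstream (y axis, %) under liver peaks for each of the 47 genes, with the line of equal shares in grey and selected genes named. The 8 genes under 5 kb (orange) lie at 0 on the x axis except Apoa4, at 94.9%, while genes of 5 kb or more (green) spread up to 81.8% (Itih1).

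At 10 percentage points or more, the liver span coverage was above that of ESCs in 26 genes (22.6% of all genes) and below it in 9 (21.7%). It was above that of MEFs in 32 (30.7%) and below in 2 (12.7%), and above that of brain in 31 (24.9%) and below in 5 (14.7%). The 9 genes below ESCs were Apoa1, Apoa2, Apoa5, Apoc3, Hp, Vtn, Ahsg, Fga and F2. In the 5 kb upstream, liver was at least 10 points above ESCs in 32 genes (21.6%) and below in 4 (21.9%), which were Apoa2, Fgb, F2 and Trf. Of the 4 cell types, liver had the highest span coverage in 30 genes (28.8% of all genes) and the highest upstream coverage in 34 (23.1%). At least 50% of the span was covered in 13 genes in liver (12.9% of all genes), 6 in ESCs (11.2%), 3 in brain (5.81%) and 0 in MEFs (3.07%). The ESC genes were Apoa1, Apoa2, Apoa5, Hp, Vtn and F2, and the first 5 of these had no liver peak in the span. With MEF and brain peaks held to the lowest score of the liver list, 80, a span peak was listed for 15 and 10 of the 47 genes, against 38.7 and 32.9% of all genes, and 37 in liver.

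**Figure D4:**
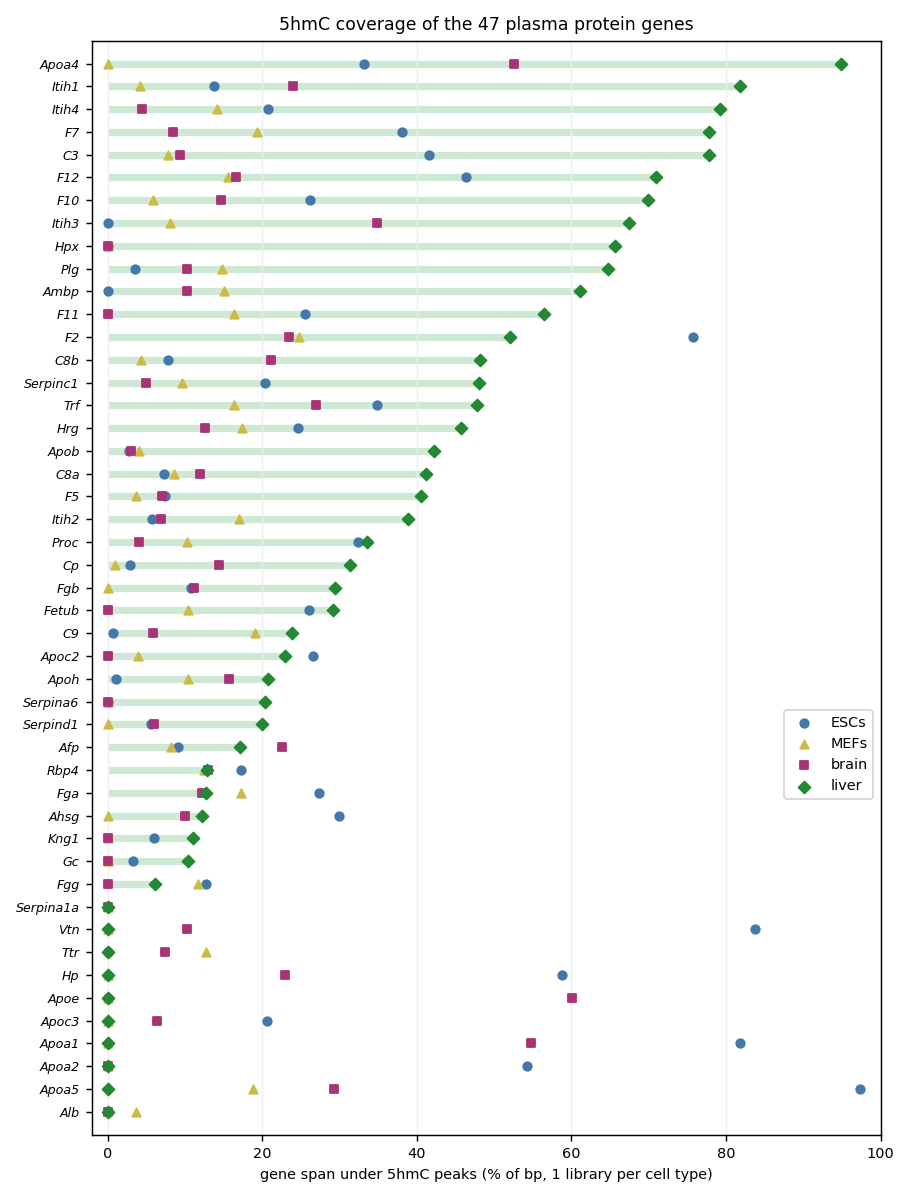
Share of each gene's span under 5hmC peaks (x axis, % of bp) for the 47 plasma protein genes (rows, sorted by liver), with 1 symbol for each cell type and a green bar up to the liver value. Liver is the highest of the 4 in 30 genes, from Apoa4 (94.9%) downwards, and stands at 0 in the bottom 10 rows, where ESC values reach 97.4% (Apoa5).

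A liver peak with none in ESCs, MEFs or brain was found in the 5 kb upstream of 11 genes, against 5.03% of all genes. These were Alb, Gc, Hrg, Serpinc1, Cp, Serpind1, Kng1, Hpx, Plg, Itih3 and Serpina6. The windows of Serpinc1, Serpind1 and Hpx overlap other protein-coding genes (Rc3h1, Pi4ka and Trim3). By the same rule, 7 genes had a TSS ± 1 kb with a liver peak alone (6.46% of all genes) and 2 a gene span (1.75%), Hpx and Serpina6. Hpx encodes hemopexin, which binds free heme, and had 65.7% of its span under liver peaks and none in the other 5 libraries. Serpina6 encodes the corticosteroid carrier of plasma, and had 20.4% in liver and none in the other 5.

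Among albumin and the other carriers (10 genes), every gene had a liver peak upstream (38.4% of all genes) and 7 had one in the span (57.9%). Upstream peaks were listed for 2 in ESCs, 5 in MEFs and 3 in brain, and span peaks for 6, 7 and 7. Alb, the gene of serum albumin, the most abundant plasma protein, had 66.0% of its 5 kb upstream under liver peaks and 0% in the other 5 libraries. Its span, 15715 bp at chr5:90889915-90905629, had no liver peak. The liver peaks upstream ran from -4737 to -3502 bp, from -3030 to -1518 bp and from -932 to -382 bp relative to the TSS, with scores of 229, 227 and 91.1. In the span there was 1 MEF peak (583 bp, score 32.1) and 1 shSuz12 peak (score 44.7), both in introns and both under the lowest score of the liver list. Alb therefore had 5hmC on both flanks in liver and none listed between the TSS and 17976 bp.

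Afp, the gene of alpha-fetoprotein, is the fetal relative of albumin and is largely silent in adult liver. It lies downstream of Alb on the same strand, with 18194 bp at chr5:90919740-90937933. Its span coverage was 17.1% in liver, 22.6% in brain, 9.1% in ESCs, 8.22% in MEFs, 3.9% in shGFP and 3.0% in shSuz12. Its upstream coverage was 14.7% in liver and 11.8% in MEFs, with no peak in the other 4 libraries. The 2 neighbours thus differed within liver, with the upstream window 66.0% covered at Alb and 14.7% at Afp, and the span 0% and 17.1%. Liver peaks in Afp began 2762 bp after the TSS, and 1 of them, from 13496 to 14639 bp, overlapped peaks of ESCs, MEFs and brain.

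Trf, the gene of transferrin, which carries iron, was covered upstream in all 6 libraries. The upstream share was 79.7% in ESCs, 66.1% in liver, 64.3% in shGFP, 45.4% in brain, 33.1% in MEFs and 21.9% in shSuz12. The span share was highest in liver, at 47.8%, followed by 34.8% in ESCs and 27.0% in brain. The annotation has 2 entries of this symbol, and the one with known status was used. Ambp, the precursor of alpha-1-microglobulin and bikunin, had 61.1% of its span covered in liver, 15.1% in MEFs, 10.3% in brain, 3.51% in shSuz12 and none in ESCs or shGFP. Hp, the gene of haptoglobin, which binds free hemoglobin, showed the reverse in its span, with 58.8% in ESCs, 37.6% in shGFP, 28.3% in shSuz12, 23.0% in brain and none in MEFs or liver. Upstream of Hp the liver share was 40.1%. Ttr, the gene of transthyretin, a carrier of thyroid hormone that is also made by the choroid plexus of the brain, had its TSS under a peak in brain and MEFs. In brain the TSS ± 1 kb of Ttr was 83.8% covered, and in liver it had no peak. Gc (vitamin D binding protein), Cp (ceruloplasmin, the copper carrier) and Rbp4 (retinol binding protein) had 10.4, 31.3 and 12.9% of their spans under liver peaks.

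Among the 9 apolipoprotein genes, the protein parts of plasma lipoproteins, liver 5hmC lay upstream of every gene and in the span of 4. ESC peaks also lay upstream of all 9, and in the span of 8, while MEF peaks lay upstream of 4 and brain peaks of 6. Over all genes the upstream share was 38.4% in liver and 46.2% in ESCs. The median coverage of the 9 genes in liver was 0% in the span and 49.5% upstream. In ESCs it was 26.5% in the span and 16.9% upstream, and 8 of the 9 genes had an ESC peak within 1 kb of the TSS. Apoa1, the main protein of high density lipoprotein, had 81.8% of its span covered in ESCs, 54.8% in brain, 35.3% in shGFP, 25.5% in shSuz12 and none in MEFs or liver. The nearest liver peak upstream of Apoa1 ended 4416 bp before its TSS. Apoa5, a regulator of plasma triglyceride, had 97.4% in ESCs, 43.4% in shGFP, 29.3% in brain, 18.8% in MEFs and none in liver or shSuz12, with 55.9% of its upstream window under liver peaks. Apoa2 had 54.2% in ESCs and 32.4% in shGFP and none in the other 4. A liver peak of 4759 bp with a score of 1472 ended 4220 bp upstream of Apoa2, in a stretch that holds the genes Nr1i3 and Tomm40l.

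Apoa4 was the exception among the short genes. Its span of 2764 bp was 94.9% covered in liver, 52.6% in brain, 33.2% in ESCs, 29.1% in shSuz12, 5.1% in shGFP and 0% in MEFs. A single liver peak of 4876 bp, with a score of 899, ran from 141 bp after the TSS of Apoa4 to beyond the gene end. Apob, the main protein of low density lipoprotein, differed in position. In ESCs, MEFs and brain, 80.9, 76.6 and 76.7% of its TSS ± 1 kb was covered, in shGFP 68.7% and in shSuz12 40.1%, each with a peak across the TSS. The liver share there was 32.6%, from a peak that ended 349 bp before the TSS. Of the Apob span, 42.2% was under liver peaks, spread over 15 peaks after the first 5984 bp, and 0.589 to 4.03% in the other libraries. Apoe, also made by astrocytes in the brain, had 60.1% of its span covered in brain and 22.5% in shGFP, and none in ESCs, MEFs, liver or shSuz12. Apoc2 had 22.9% in liver and 26.5% in ESCs.

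The Apoa1-Apoc3-Apoa4-Apoa5 cluster (chr9:46036663-46080002, 43.3 kb) showed the division at close range. Within the 4 genes, 58.4% of bp lay under ESC peaks and 24.6% under liver peaks. Between the genes it was 10% in ESCs and 33.7% in liver. Brain was nearer to ESCs, with 34.1% in the genes and 7.92% between them, and MEFs had 5.8 and 1.76%. Apoc3 and Apoa4 are divergent and share part of their upstream windows, so the liver peaks there count for both. The Apoe-Apoc2 region (27.6 kb) had a similar total in ESCs (22.6%) and liver (21.6%), with 15.6% in brain and 1.38% in MEFs.

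**Figure D5:**
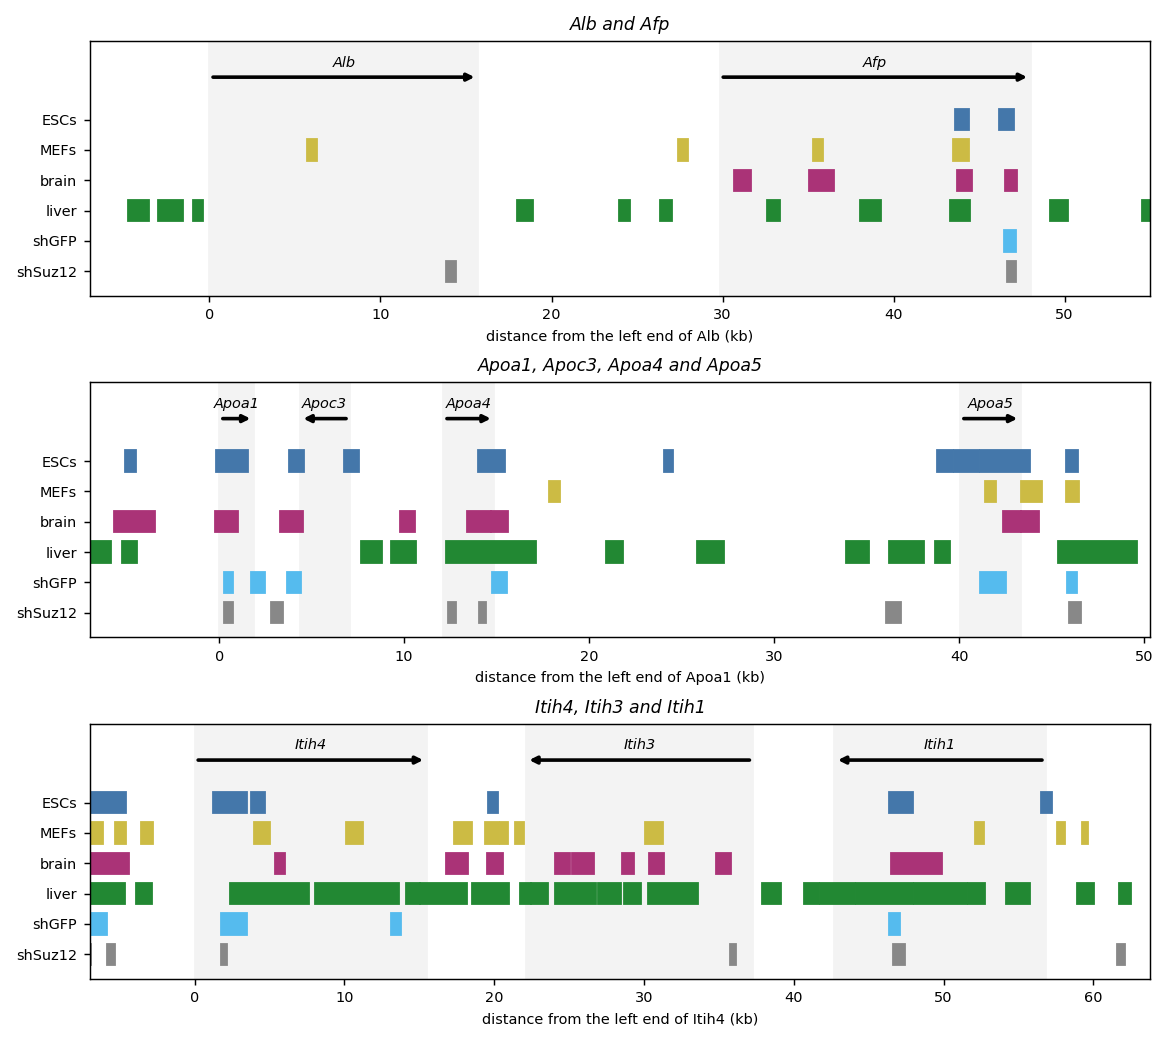
5hmC peaks (coloured boxes) of the 6 libraries (rows) in 3 gene clusters, by distance from the left end of the first gene (x axis, kb), with gene spans in grey and arrows in the direction of transcription. Liver peaks flank Alb and leave its span free, lie mostly between the genes of the Apoa1 to Apoa5 cluster except over Apoa4, and cover 75.5% of the Itih4 to Itih1 stretch.

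The fibrinogen chains and clotting factors (10 genes) had a peak in every span in liver and in ESCs, and in 8 spans in MEFs and 7 in brain. Over all genes 57.9% had a liver span peak and 67.8% an ESC one. Their median span coverage was 46.3% in liver, against 25.8% in ESCs, 13.6% in MEFs and 9.85% in brain. F7 and F10, which encode neighbouring serine proteases of the clotting cascade, were among the most covered. The F7 span was 77.8% covered in liver, 38.1% in ESCs, 27.0% in shGFP, 19.3% in MEFs, 17.3% in shSuz12 and 8.47% in brain. The F10 span was 69.9% covered in liver, 26.2% in ESCs, 14.6% in brain, 7.45% in shGFP, 5.84% in MEFs and 5.52% in shSuz12. F10 also had the highest upstream share of all 47 genes in liver, 77.7%, and 80.9% in ESCs, but that window lies over the end of F7. The stretch from F7 to F10 (30.6 kb) was 71.3% covered in liver, 33.6% in ESCs, 14.0% in brain and 9.84% in MEFs. F12, the factor that starts the contact pathway, had 71.0% in liver, 46.4% in ESCs, 40.8% in shGFP, 16.6% in brain, 15.5% in MEFs and 13.9% in shSuz12. Its widest liver peak, of 5896 bp with a score of 1709, was also the widest liver peak near any of the 47 genes. F2, the gene of prothrombin, was higher in ESCs (75.8%) than in liver (52.1%), and its TSS ± 1 kb was 100% covered in ESCs, 58.0% in brain and 0% in liver.

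The 3 fibrinogen genes, whose products form the clot, had less of their spans covered in liver than most clotting factors. Fga had 12.7% of its span covered in liver, 27.3% in ESCs and 34.5% in shGFP. Fgb had 29.4% in liver, 10.8% in ESCs and 11.2% in brain. Fgg had 6.18% in liver, the lowest of the genes with a liver span peak, and 12.7% in ESCs, 11.7% in MEFs, 10.9% in shGFP and 16.6% in shSuz12. Over the fibrinogen locus (chr3:82811781-82853725, 41.9 kb), liver peaks covered 16.2% of the genes and 29.8% of the stretches between them. In ESCs these values were 17.2 and 0%.

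The 5 genes of anticoagulants and fibrinolysis had a peak in every span in liver, ESCs and brain, and in 4 spans in MEFs. A liver peak lay upstream of all 5, against 1 gene in ESCs, 1 in MEFs and 0 in brain. Over all genes 57.9% had a liver span peak and 38.4% an upstream one. Plg, the gene of plasminogen, which dissolves fibrin, had 64.8% of its span covered in liver, 14.8% in MEFs, 10.3% in brain, 3.58% in ESCs, 2.02% in shGFP and none in shSuz12. Upstream of Plg, 38.4% was covered in liver and none in the other 5 libraries. Its first liver peak after the TSS began at 10027 bp, and 1 of its intronic peaks was 5244 bp wide with a score of 1481. Serpinc1 (antithrombin), Hrg (histidine-rich glycoprotein), Serpind1 (heparin cofactor II) and Proc (protein C) had 48.1, 45.7, 19.9 and 33.5% in liver, with 20.4, 24.6, 5.64 and 32.4% in ESCs. Upstream of Serpinc1, Hrg and Serpind1, liver was the only one of the 6 libraries with a peak. The window of Serpinc1 overlaps the gene Rc3h1, and that of Serpind1 the gene Pi4ka.

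Among the 9 genes of protease inhibitors and matrix proteins, those of the inter-alpha-trypsin inhibitor heavy chains were the most covered in liver. Itih1 had 81.8% of its span covered in liver, the highest of the genes of 5 kb or more, and 24.0% in brain, 13.8% in ESCs, 5.72% in shSuz12, 4.85% in shGFP and 4.14% in MEFs. Itih4 had 79.2% in liver, 20.8% in ESCs, 15.4% in shGFP, 14.2% in MEFs, 4.43% in brain and 2.85% in shSuz12. Itih3 had 67.5% in liver, 34.8% in brain, 8.11% in MEFs, 2.61% in shSuz12 and none in ESCs or shGFP. The stretch of the 3 genes (chr14:31699662-31756475, 56.8 kb) was 75.5% covered in liver, in 18 peaks, against 21.1% in brain, 12.7% in MEFs, 10.2% in ESCs, 5.41% in shGFP and 2.9% in shSuz12. Liver coverage was alike in the genes (76.0%) and between them (73.4%), unlike that of the Apoa1 to Apoa5 cluster. Itih2, on another chromosome, had 38.8% in liver and 17.0% in MEFs.

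Vtn, the gene of vitronectin, resembled the short genes Apoa1, Apoa2 and Apoa5, with ESC peaks in the span and no liver peak there. Its span was 83.8% covered in ESCs, 81.3% in shGFP, 49.5% in shSuz12, 10.2% in brain and none in MEFs or liver, with 29.3% of the 5 kb upstream under liver peaks. Fetub and Ahsg, which encode the 2 fetuins and are neighbours, had 29.2 and 12.2% of their spans covered in liver and 26.1 and 29.9% in ESCs. The Fetub TSS ± 1 kb was 97.8% covered in liver, 100% in ESCs, 95.1% in shGFP, 51.6% in MEFs, 50.3% in shSuz12 and 0% in brain. Serpina1a, a gene of alpha-1-antitrypsin, had no peak in any library in its span or in either flank. It belongs to a family of near-identical copies, and the authors kept only reads with a single match. Of its 36-base words, 61.8% recurred within 1 Mb, against a median of 1.12% and a highest value of 23.5% (Kng1) in the other 46 genes. Its relatives Serpina1d and Serpina1e had 848 and 1458 bp of their spans under liver peaks. The share of 5hmC at Serpina1a lost with such reads was not tested.

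The 4 complement genes had a peak in every span in liver, and also in ESCs, MEFs and brain. Over all genes 57.9% had a liver span peak. C3, the central protein of complement, had 77.8% covered in liver, 41.6% in ESCs, 18.1% in shGFP, 9.37% in brain, 7.83% in MEFs and 5.88% in shSuz12, with none in its 5 kb upstream in liver. Its liver peaks began 2590 bp after the TSS, and the widest was 5689 bp with a score of 1518. C8a and C8b, neighbours that encode chains of the membrane attack complex, had 41.2 and 48.2% of their spans covered in liver, 12 and 21.1% in brain, 7.26 and 7.79% in ESCs and 8.59 and 4.37% in MEFs. Upstream of C8b the liver share was 56.5%, with 14.7% in brain, 12.1% in ESCs and none in the other 3 libraries. C9 had 23.9% in liver and 19.0% in MEFs.

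In the knockdown pair, the 2 lists have different lowest scores, so the values are set side by side. The span coverage in shSuz12 was at least 10 points below shGFP in 13 of 47 genes (17.1% of all genes) and at least 10 points above in 1 (2.43%), Apoa4. Median peak widths near the 47 genes were 561 bp in shSuz12 and 808 bp in shGFP, near those of the whole lists (564 and 776 bp). With a score of at least 80 in both lists, a span peak was listed for 29 genes in shGFP and 16 in shSuz12, against 53.1 and 30.4% of all genes.

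Within the 47 spans and their 5 kb flanks lay 342 different liver peaks, 156 of ESCs, 142 of MEFs, 126 of brain, 106 of shGFP and 111 of shSuz12. Per gene, liver had a median of 5 and up to 24. The liver peaks had a median width of 1154 bp and a median score of 200, against 1016 bp and 162 over the whole list. Of the liver peaks near these genes, 28.4% overlapped an ESC peak, 26.3% a MEF peak and 22.8% a brain peak by at least 1 bp, against 46.7, 45.3 and 46.4% of all liver peaks. Conversely, near these genes a liver peak was overlapped by 66.0% of ESC peaks (38.4% over that list), 64.8% of MEF peaks (29.7%) and 62.7% of brain peaks (39.3%). More bp were covered in liver here, which by itself raises such overlaps. The larger number of liver peaks can likewise lower the share of them that overlap a peak of another library. Of exonic bp of the 47 genes, 50% lay under liver peaks and of intronic bp 35.4%, a ratio of 1.41, against 1.84 over all genes. In ESCs the shares were 26.2 and 10.3%, a ratio of 2.55, near the 2.53 over all genes. The liver peaks near these genes held a median of 11.8 CpG per kb, against 13.2 over the list and 18.1 in the ESC peaks near them.

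The promoters were poor in CpG. The 2 kb around the TSS held a median of 22 CpG, against 60 over all genes, and 42 of the 47 genes (89.4%) were in the class of low CpG promoters against 40.6% of all genes. The exceptions were Trf, F11, Rbp4 and Proc, of intermediate class, and Apoh, whose outermost start lies 51939 bp from another annotated start. Within the low class, 38 of 42 genes had a liver peak in the 5 kb upstream, against 23.5% of all genes of this class, and 21 of 42 had one in ESCs, against 35.6%. In the TSS ± 1 kb the low class had 18 of 42 in liver against 16.9%. There it had 13 in ESCs against 30.3%, 10 in MEFs against 23.4% and 9 in brain against 17.8%. RefSeq promoters (GRCm38.p6, from 250 bases before to 50 after the start) were matched for 39 of the 47 genes and searched on both strands. The TATA box letters TATAAA were found, at any distance from the start, in 13 of 39 (33.3%), against 15.7% of all genes with a RefSeq promoter. The letters GTTAATNAT of an HNF1 site were found in 5 (12.8% against 0.94%), and the C/EBP letters TTGCGCAA in 0 (0.207%). The 5 were Alb, Afp, Fga, Cp and Gc. In the runs printed above, these HNF1 letters lie from -51 to -43 at Alb and from -105 to -97 at Afp, both on the strand of the gene. The letters TATAAA lie there from -31 to -26 at Apob and Fetub and from -7 to -2 at Afp. A match of letters is a description, and no binding was measured.

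Other gene lists, chosen by symbol, place these values. Over all genes, 38.4% had a liver peak in the 5 kb upstream and 57.9% in the span. The lists were not matched in gene length, with medians from 10030 bp (other liver-secreted) to 62535 bp (neuronal), and 12339 bp in the members. Of 62 other genes of liver-secreted proteins, 43 (69.4%) had a liver peak in the 5 kb upstream and 46 (74.2%) in the span, with a median span coverage of 19.6%. That list includes relatives of the members, such as Serpina1b to Serpina1e and Kng2, and peaks near genes of both lists were not counted. Of 90 cytochrome P450 genes, which encode enzymes of drug and steroid metabolism, 34 had a liver peak upstream and 45 in the span. Their median span coverage was 0.381%. Of 32 markers of the other cells of the liver (endothelial, Kupffer and stellate cells among them), 6 (18.8%) had a liver peak upstream and 12 (37.5%) in the span. Their median span coverage was 0% in liver, 12.7% in MEFs, 9.71% in ESCs and 6.83% in brain. Of 47 neuronal genes, 10 (21.3%) had a liver peak upstream and 22 (46.8%) in the span. Liver is a whole tissue, so more cells with 5hmC and more 5hmC per cell cannot be told apart. Other protein-coding genes overlap the upstream window of 12 of the 47 (Apoa1, Apoa2, Apoe, Apoh, F5, F10, Hpx, Serpinc1, Serpind1, Itih4, C9 and Vtn). Among the 35 without one, 31 had a liver peak upstream, against 29.4% of all such genes, and 17 had an ESC peak, against 40.7%.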

How the data were processed

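GLIB-Seq libraries of 6 conditions were used, 1 sample each, grouped by the labels; 2 RNA-Seq samples were not analysed here. Per the labels and the study's methods, the authors called bases with CASAVA (version 1.8), mapped reads to mm9 with Bowtie (0.12.7), kept single matches, collapsed repeated reads and called peaks per library with MACS (1.4.1). Peak scores, deposited by the authors, were read as the MACS scale of −10 log10 p, and peaks of lists with other lowest scores are not matched in stringency. Controls and thresholds are not given in the sources used here. Mitochondrial peaks (1 to 3 per list) were left out.

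Peaks were laid over GENCODE M1 gene spans of NCBIM37, with the outermost start as TSS, and bp under peaks were summed in the span, TSS ± 1 kb, and 5 kb upstream and downstream. A gene was called with at least 1 bp under a peak. The upstream window is 5000 bp. Promoter classes used windows of 500 bp. Python 3.11.15 with numpy 2.4.6, pandas 2.3.3 and scipy 1.17.1, and samtools 1.23.1, were used, and the overlap counts were tested on simulated peaks. The members and lists were chosen with earlier results of these data known. Genes were named by a rule (Alb and Afp, the 5 highest and 5 lowest liver spans among genes of at least 5 kb, the 5 with most liver bp upstream, those with a liver peak over the TSS base, the 3 highest spans in each of ESCs, MEFs and brain, and the clusters, with ties by symbol), and further members after their values were seen. Alternatives were score limits, midpoints, window sizes, transcript starts, and members without chromosome 8 or without genes upstream. The last choices, and TSS base alternatives, were made after seeing the data.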

Additional observations from a re-analysis of the deposited data

How the results depend on the processing

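Of 156 alternative values, 118 stayed within the 95% interval of the share, or within 1.5 times the count, and 38 moved. No paired analysis was possible because there is only 1 library per group. The cause of a move was not tested, apart from those that the alternative makes by its construction: a score limit removes peaks and a wider window adds them. With a score of at least 80, the share of the 47 genes with a span peak was 31.9% in MEFs, 21.3% in brain, 61.7% in shGFP and 34.0% in shSuz12, with a TSS ± 1 kb peak 10.6% in MEFs, 6.38% in brain and 10.6% in shSuz12, and with an upstream peak 12.8% in MEFs, 6.38% in brain and 6.38% in shSuz12. ESC and liver values cannot change there. With the 50% of peaks with the highest scores, span shares were 63.8% in ESCs, 44.7% in MEFs, 51.1% in brain, 59.6% in shGFP and 55.3% in shSuz12, the MEF TSS ± 1 kb share 17.0%, and upstream shares 34.0% in ESCs, 21.3% in brain, 55.3% in liver, 17.0% in shGFP and 19.1% in shSuz12. Liver TSS ± 1 kb was 14.9% by midpoint, 12.8% at 500 bp and 63.8% at 2 kb, where brain was 38.3%. In 10 kb upstream the shares were 68.1% in ESCs, 55.3% in brain, 48.9% in shGFP and 66.0% in shSuz12. Chosen after seeing the data, any transcript start gave a liver TSS base share of 21.3%, and a score of at least 80 a brain one of 4.26%. The count of spans with liver below MEFs was 0 with a score of at least 80, with the highest 50% and at 20 points, and that below brain was 2 with a score of at least 80 and 8 at 5 points. For shSuz12 against shGFP, 4 genes were above at 5 points and 6 below at 20 points. Leaving out the 4 genes on chromosome 8, chosen after seeing the data, moved no share outside its interval.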
